A study of Homo sapiens with 42 samples.

Results

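The 50 genes described here encode proteins of the nucleolus that make ribosomes, and all 50 were found by gene symbol among the 58243 gene IDs of the mRNA and nuclear RNA count tables. They were grouped by role into 4 genes of ribosomal RNA (rRNA) transcription, 17 of the small subunit (SSU) processome, 4 of 40S subunit maturation, 8 of small nucleolar ribonucleoproteins (snoRNPs), 12 of 60S subunit assembly and 5 other nucleolar proteins. RNA came from K562, a long-established line of leukaemic cells in which the BCR-ABL kinase drives growth. Untreated cells (CTRL) were compared with cells given 1 μM imatinib (IM), a BCR-ABL inhibitor, for 1, 6 or 18 h. Other cells were given 5 μM JTE-607 (JTE), an inhibitor of the nuclease that cuts pre-mRNA at its 3′ end, for 1, 6 or 18 h, or 110 mM KCl, a hyperosmotic shock, for 1 or 3 h. The 27 mRNA libraries covered these 9 groups, and the 15 nuclear RNA libraries covered CTRL, IM 1 h, IM 18 h, JTE 1 h and KCl 1 h, with 3 biological replicates per group per the labels. Poly(A) selection was used for mRNA, and rRNA was depleted from nuclear RNA, so neither kind of library measured rRNA itself. All libraries came from 1 cell line.

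Ribosome production starts in the nucleolus, where RNA polymerase I transcribes the long rRNA precursor. The SSU processome, a large particle built around the U3 snoRNP, folds and cleaves the part that becomes the 40S subunit, while snoRNPs guide methylation and pseudouridylation of the rRNA and a separate set of factors assembles the 60S subunit. These genes are highly transcribed in growing cells, and many of them are known targets of the transcription factor MYC, which binds the sequence CACGTG, the canonical E-box.

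The promoter windows of RefSeq, on GRCh38.p14, run from 250 bases before to 50 after an annotated start and were present for 43 of the 50 genes. TCOF1, RRP12, NOP58, NOLC1, BOP1, RRS1 and DDX18 had no window. CACGTG, which reads the same on both strands, occurred in windows of 19 of these 43 genes (44.2%), against 12.4% of the tested mRNA genes with a window. Counted by windows, it was in 37.3% of the members' 51 windows, against 9.33% of the windows of tested genes and 7.26% of all 35116 windows. The ETS-type sequence CCGGAAGT, searched on both strands, occurred in 9 of the 43 genes (20.9%), against 9.65% of tested genes with a window, and in 17.6% of the members' windows, against 7.22% of the windows of tested genes and 4.14% of all windows. The 19 genes with CACGTG were WDR43, UTP4, UTP18, WDR46, UTP14A, UTP20, NOP14, RRP9, NAT10, BYSL, LTV1, FBL, NOP10, GAR1, NOP2, PES1, DDX21, MYBBP1A and GNL3. A match is a description of the letters and not a measured binding site.

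Shown here, 5′ to 3′ on the gene's strand with any CACGTG in capitals, are the windows of WDR43 and RRP9, which hold it within 10 bases of the start, of NOP16, which had the lowest fold change in mRNA at IM 18 h, and of UBTF, whose fold change there was above 0. The WDR43 window lies at chr2:28894417-28894716 on the plus strand, that of RRP9 at chr3:51941855-51942154 on the minus strand, that of NOP16 at chr5:176388549-176388848 on the minus strand, and the first UBTF window at chr17:44220833-44221132 on the minus strand.
WDR43: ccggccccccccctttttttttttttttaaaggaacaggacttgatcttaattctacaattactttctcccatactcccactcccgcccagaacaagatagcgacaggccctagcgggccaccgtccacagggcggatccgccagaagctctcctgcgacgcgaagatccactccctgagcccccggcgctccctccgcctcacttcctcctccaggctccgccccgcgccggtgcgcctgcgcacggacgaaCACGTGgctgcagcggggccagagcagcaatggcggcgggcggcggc
RRP9: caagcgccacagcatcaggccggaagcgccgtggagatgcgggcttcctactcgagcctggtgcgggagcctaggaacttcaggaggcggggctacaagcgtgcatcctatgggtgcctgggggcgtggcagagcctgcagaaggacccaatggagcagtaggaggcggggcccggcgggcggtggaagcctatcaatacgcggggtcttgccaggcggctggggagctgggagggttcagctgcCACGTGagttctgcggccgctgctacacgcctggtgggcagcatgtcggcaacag
NOP16: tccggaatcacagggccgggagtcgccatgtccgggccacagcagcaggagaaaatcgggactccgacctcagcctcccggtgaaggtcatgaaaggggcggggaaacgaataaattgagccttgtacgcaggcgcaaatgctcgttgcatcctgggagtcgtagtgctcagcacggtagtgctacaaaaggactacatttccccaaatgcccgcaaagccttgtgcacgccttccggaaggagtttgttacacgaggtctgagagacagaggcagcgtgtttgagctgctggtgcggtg
UBTF: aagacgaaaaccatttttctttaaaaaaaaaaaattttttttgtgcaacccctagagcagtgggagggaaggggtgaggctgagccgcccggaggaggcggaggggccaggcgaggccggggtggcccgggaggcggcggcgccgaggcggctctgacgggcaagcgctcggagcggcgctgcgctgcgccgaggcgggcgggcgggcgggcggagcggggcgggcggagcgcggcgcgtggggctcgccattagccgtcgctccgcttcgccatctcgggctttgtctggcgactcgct
In WDR43 the first base of CACGTG was at position 4 from the start, and in RRP9 at position -5. Neither the NOP16 window nor the UBTF window held CACGTG or CCGGAAGT.

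Total counts per library ranged from 16439848 to 22505595 for mRNA, apart from KCl 1 h replicates 2 (62953314) and 3 (42474454), and from 16175394 to 25103205 for nuclear RNA. All 9 K562 markers were above 1 on the counts-per-million (CPM) scale in every library. The 12 markers of other blood cells and fibroblasts summed to between 8.85 and 28.3 CPM in mRNA and between 9.23 and 36.1 CPM in nuclear RNA. Levels below are CPM, scaled by the trimmed mean of M-values (TMM). They are relative to all counted RNA, and in bulk samples fewer cells of a type and less RNA per cell cannot be told apart. A gene was called when edgeR's quasi-likelihood test gave a Benjamini-Hochberg adjusted p under 0.05 over all tested genes and the log2 fold change was beyond 0.6 in either direction. All comparisons with CTRL within a kind of RNA share the same 3 CTRL libraries. CTRL was labelled untreated without a time, and no untreated or vehicle group was matched to the treatment times. Time in culture and treatment therefore cannot be told apart in these comparisons.

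In untreated cells nearly all members were abundant. Per kilobase of exon, 48 of 50 members in mRNA and 49 of 50 in nuclear RNA were above the 75th percentile of tested genes, with medians of 33.8 and 34.2 CPM per kilobase. NPM1, which encodes nucleophosmin, was highest at 632 ± 86.3 (SD, n = 3) CPM per kilobase in mRNA, followed by the RNA helicase gene DDX21 at 278 and the nucleolin gene NCL at 223. PPAN, a 60S assembly gene, was lowest at 2.18 ± 0.347 CPM per kilobase. Of its exon bases, 59.8% overlap P2RY11 and the joined transcript PPAN-P2RY11, so its count depends on how shared reads were assigned. The paper's counting settings hold none for reads shared between genes, so this level may be understated.

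Imatinib at 18 h was compared with CTRL to ask how the nucleolar programme stood after prolonged BCR-ABL inhibition. In mRNA, 47 of 50 members were lower and 0 were higher. Of all 18095 genes tested in this comparison, 13.2% were called lower. The median log2 fold change was -1.21 over the members and 0.04 over all tested genes. The 3 members not called were UBTF, FBL and NPM1. All 4 genes of 40S maturation, all 17 of the SSU processome and all 12 of 60S assembly fell, with medians of -1.37, -1.21 and -1.52. Of the snoRNP genes 7 of 8 fell (median -0.83), of the rRNA transcription genes 3 of 4 (-1.10) and of the other nucleolar genes 4 of 5 (-1.48).

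Among the genes of rRNA transcription, POLR1B, which encodes the second-largest subunit of RNA polymerase I, was at 113.6, 108.5 and 128.6 CPM in the CTRL libraries and at 34.64, 41.69 and 51.22 CPM at IM 18 h. No library of one group reached the other, and the log2 fold change was -1.46 ± 0.17 (SE, adjusted p = 6.2e-07). POLR1A, the largest subunit, fell by 1.06 and TCOF1, which encodes the rRNA transcription factor treacle, by 1.14 on the log2 scale. UBTF, which binds the rRNA gene promoter, was at 230.8, 186.4 and 300.0 CPM in CTRL and at 301.4, 301.8 and 317.2 CPM at IM 18 h. The IM 18 h libraries were above all CTRL libraries, but the highest CTRL library was close to them. The log2 fold change of 0.36 was not called (adjusted p = 0.22).

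WDR43, an SSU processome component whose introns carry box C/D snoRNA genes, lies at chr2:28894643-28948222 on the plus strand. Its mRNA was at 248.3, 212.0 and 233.4 CPM in CTRL, 97.21, 63.49 and 102.4 CPM at IM 6 h and 55.87, 93.44 and 85.17 CPM at IM 18 h. Both imatinib groups were below every CTRL library and overlapped each other. At 1 h of imatinib it was at 209.9, 257.7 and 235.2 CPM, within reach of CTRL, and with JTE-607 it was at 199.4, 222.9 and 213.2 CPM at 6 h and 157.8, 170.5 and 154.6 CPM at 18 h, where it was below CTRL but not called (-0.52, adjusted p = 0.055). The log2 fold change was -1.40 ± 0.17 (SE, adjusted p = 1e-05) at 6 h and -1.56 ± 0.17 (adjusted p = 2.8e-07) at 18 h, which left 33.8% of the CTRL level.

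RRP9, the U3 snoRNP protein, was at 45.41, 31.38 and 37.29 CPM in CTRL and 5.864, 11.84 and 10.95 CPM at IM 18 h. The groups were far apart, and RRP9 had the largest fall of the 17 SSU processome genes, at -1.99 ± 0.28 (SE, adjusted p = 7.3e-06). WDR75 had the smallest. It was at 137.9, 126.5 and 117.6 CPM in CTRL and 65.81, 78.44 and 84.18 CPM at IM 18 h, without overlap, with a log2 fold change of -0.74 ± 0.12 (adjusted p = 2.8e-05). Between these lay UTP15 at -1.84, UTP20 at -1.61, WDR3 at -1.52, the helicase DDX10 at -1.48, UTP4 at -1.31, WDR36 at -1.25, WDR46 at -1.21, HEATR1 at -1.19, UTP3 at -1.18, UTP14A at -1.17, UTP6 at -1.08, the RNA cytidine acetyltransferase NAT10 at -0.92, UTP18 at -0.83 and NOP14 at -0.81, beside WDR43.

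Of the 40S maturation genes, LTV1 was at 87.74, 71.09 and 83.06 CPM in CTRL and at 16.02, 25.53 and 23.66 CPM at IM 18 h. The groups did not overlap (log2 fold change -1.89 ± 0.15, SE, adjusted p = 2.2e-09). NOB1, the endonuclease that makes the 3′ end of 18S rRNA, was at 82.39, 90.47 and 79.1 CPM in CTRL and 48.33, 50.22 and 58.43 CPM at IM 18 h. This smaller difference also left the groups apart (-0.68 ± 0.11, adjusted p = 2.8e-05). RRP12 fell by 1.71 and BYSL by 1.02 on the log2 scale.

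The snoRNP genes were led by NOLC1, a chaperone of snoRNPs, at 557.6, 491.9 and 462.5 CPM in CTRL and 133.5, 194.6 and 185.1 CPM at IM 18 h. The groups did not overlap (-1.56 ± 0.17, SE, adjusted p = 2.3e-07). FBL encodes fibrillarin, the methyltransferase of box C/D snoRNPs, and was at 345.7, 337.5 and 291.2 CPM in CTRL and 202.5, 215.9 and 226.1 CPM at IM 18 h. Its groups did not overlap either, but its log2 fold change of -0.60 ± 0.12 (adjusted p = 0.00037) stopped short of the fold threshold. The box C/D partners NOP56 and NOP58 fell by 1.20 and 0.84. The box H/ACA genes, which serve pseudouridylation, fell by 0.96 for GAR1, 0.83 for NOP10, 0.78 for NHP2 and 0.68 for the pseudouridine synthase DKC1.

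In 60S assembly, NOP16 was at 89.83, 67.42 and 89.81 CPM in CTRL and 14.99, 22.79 and 23.11 CPM at IM 18 h. Every treated library was far below every CTRL library (-2.02 ± 0.21, SE, adjusted p = 8.5e-08), and this was the lowest fold change of the 50 genes. WDR12, which forms a complex with PES1 and BOP1, was at 155.5, 143.1 and 141.3 CPM in CTRL and 62.23, 80.12 and 81.43 CPM at IM 18 h. It had the smallest fall of the 12 genes, again without overlap (-0.98 ± 0.12, adjusted p = 7.1e-07). Its partners PES1 and BOP1 fell by 1.58 and 1.13. The rRNA methyltransferase NOP2 fell by 1.78, while RRS1 was at -1.64, PPAN at -1.62, WDR74 at -1.52, NIP7 at -1.52, RRP1 at -1.34, the helicase DDX18 at -1.23 and NOC2L at -1.17. Exons of NOP16, NOB1, LTV1, HEATR1, WDR74, WDR3, NOP14 and NHP2 overlap other genes over 17.1% to 34.8% of their length, so the counts of these genes depend on how shared reads were assigned.

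Of the other nucleolar genes, MYBBP1A was at 138.7, 100.1 and 108.7 CPM in CTRL and 21.56, 40.96 and 35.21 CPM at IM 18 h. The groups did not overlap (-1.83 ± 0.28, SE, adjusted p = 2.1e-05). NPM1 was at 2792, 2307 and 2161 CPM in CTRL and 1573, 1644 and 1709 CPM at IM 18 h. Although these groups were also apart, the change of -0.56 ± 0.16 (adjusted p = 0.0054) was not beyond the fold threshold. DDX21 fell by 1.63, the nucleostemin gene GNL3 by 1.48 and NCL by 1.19.

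**Figure D1:**
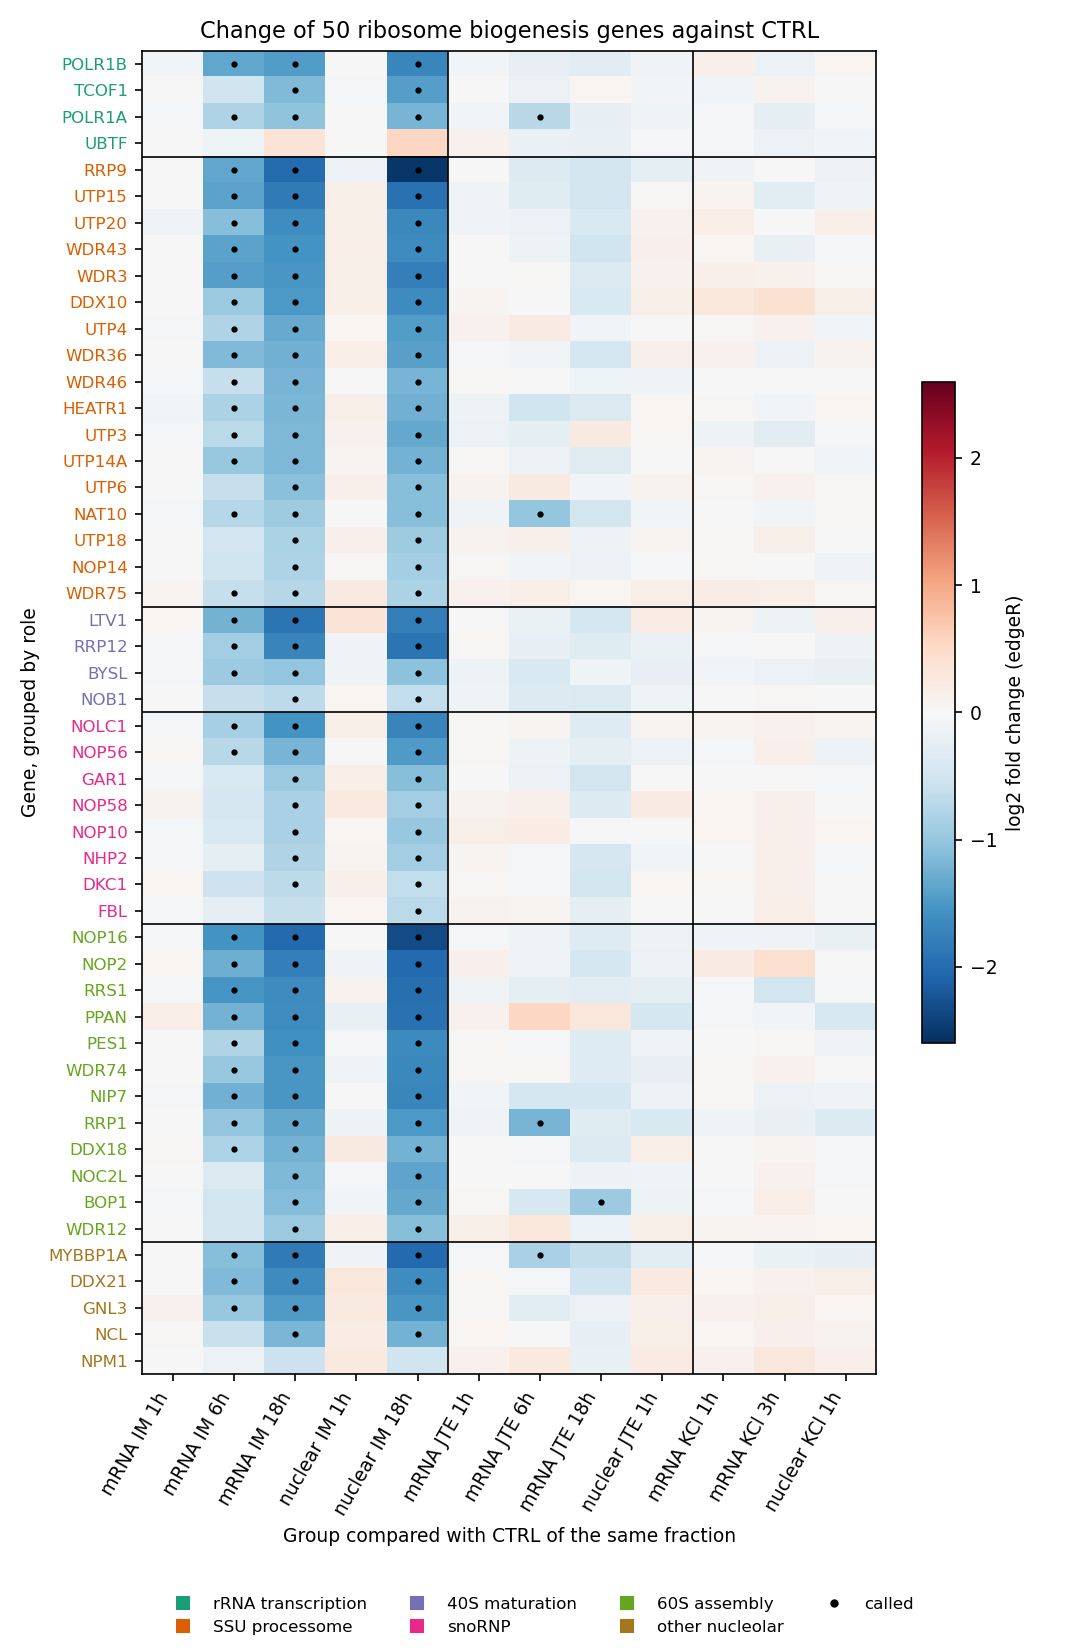
Log2 fold change against CTRL of the 50 genes (rows, grouped and coloured by role) in 12 comparisons (columns, each with the CTRL of the same kind of RNA). Blue is lower and red higher, and a dot marks a called gene. Dots fill most of the IM 6 h and both IM 18 h columns, are few for JTE and are absent for IM 1 h and KCl.

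At IM 6 h the fall was already present in most members. 33 of 50 were lower and 0 higher, with 4.12% of all tested genes called lower, and the members' median log2 fold change was -0.81. The lowest values were those of NOP16 at -1.56 (adjusted p = 1.6e-05), RRS1 at -1.53 (9.3e-05) and WDR3 at -1.44 (1.6e-06). By role, 14 of 17 SSU processome genes, 9 of 12 of 60S assembly, 3 of 4 of 40S maturation, 3 of 5 other nucleolar genes, 2 of 4 of rRNA transcription and 2 of 8 snoRNP genes were lower, and the difference between roles was not tested.

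Per library at IM 6 h, POLR1B was at 52.76, 31.31 and 53.41 CPM, below every CTRL library (-1.35 ± 0.17, SE, adjusted p = 1.5e-05). LTV1 was at 37.03, 32.23 and 34.1 CPM, also below every CTRL library (-1.23 ± 0.14, adjusted p = 5.3e-06). NOLC1 was at 304, 298.8 and 223.4 CPM (-0.87 ± 0.17, adjusted p = 0.00092). The snoRNP gene FBL differed from these, since its 294.2, 309.6 and 223 CPM overlapped CTRL and it was not called (-0.24, adjusted p = 0.2). NPM1, at 2295, 2421 and 1782 CPM, overlapped CTRL as well (-0.16, adjusted p = 0.54). UBTF had a log2 fold change of -0.12 (adjusted p = 0.79) at 6 h, on the other side of 0 from its value at 18 h.

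The individual libraries showed the same order. The median over members of the log2 ratio to the CTRL mean was -0.72, -0.76 and -0.97 in the IM 6 h libraries and -1.51, -1.12 and -1.11 in those of IM 18 h, against 0.12, -0.12 and -0.03 in the CTRL libraries themselves. The 3 CTRL libraries were thus close together, and every imatinib library at 6 or 18 h was below them.

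**Figure D2:**
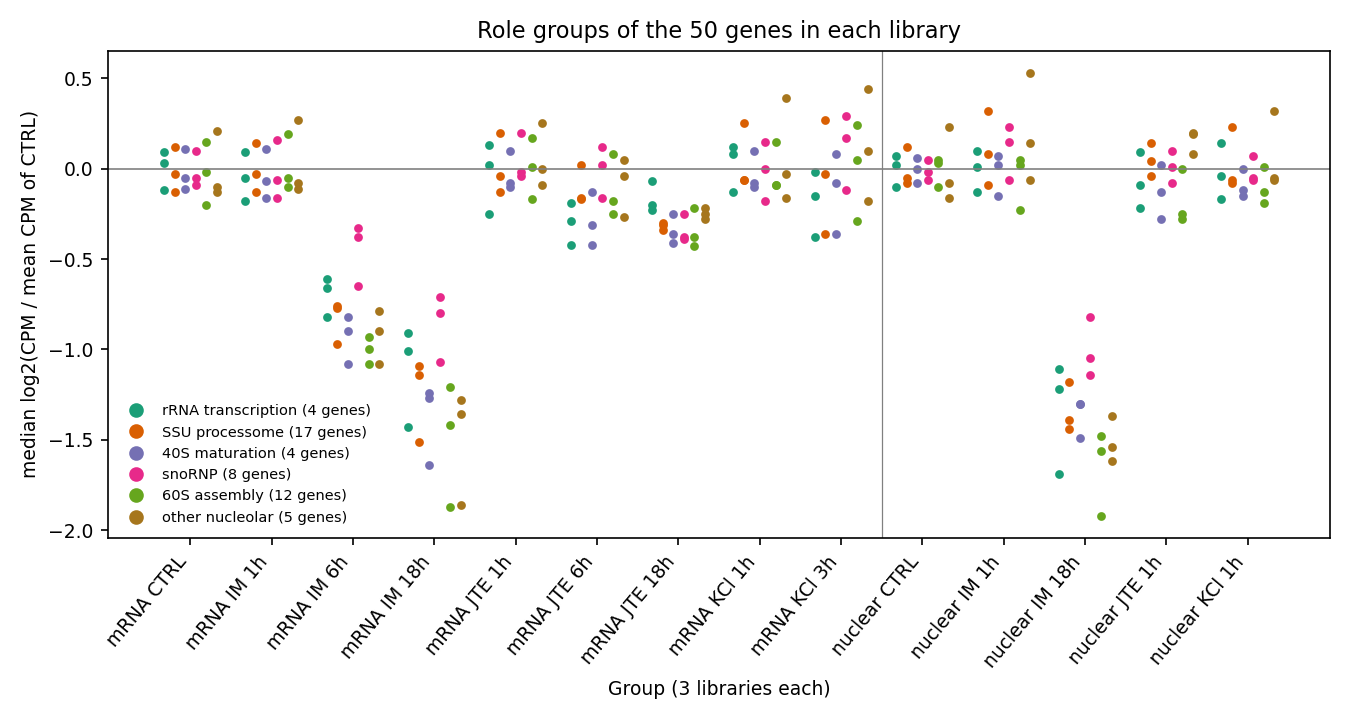
Median over the genes of each role of the log2 ratio of CPM to the CTRL mean, 1 point per library and role, for the 14 groups (horizontal axis). The SSU processome points at IM 18 h in mRNA lie from -1.51 to -1.09, and those of the snoRNP genes from -1.07 to -0.71.

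IM 18 h was tested directly against IM 6 h. 8 of 50 members were lower at 18 h and 0 higher, where 1.93% of all tested genes were lower, and the members' median difference was -0.45. The largest were RRP12 at -0.82 (adjusted p = 0.014), the 60S gene PES1 at -0.80 (0.0033) and NOC2L at -0.79 (0.023). Mean CPM of RRP12 was 85.02 ± 11.6 (SD, n = 3) in CTRL, 45.56 ± 11.1 at IM 6 h and 25.89 ± 4.43 at IM 18 h. The count rested on single libraries. Leaving out either first replicate, of IM 18 h or of IM 6 h, gave a count of 1. Leaving out the second replicate gave 2 for IM 6 h and 5 for IM 18 h, and leaving out replicate 3 of IM 6 h gave 16, of which 15 were lower and UBTF was higher.

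At IM 1 h 0 of 50 members were called in mRNA, where 0.0166% of all tested genes were called in either direction. None had an unadjusted p under 0.05 in edgeR, and DESeq2 also called 0. The members' median was -0.01.

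**Figure D3:**
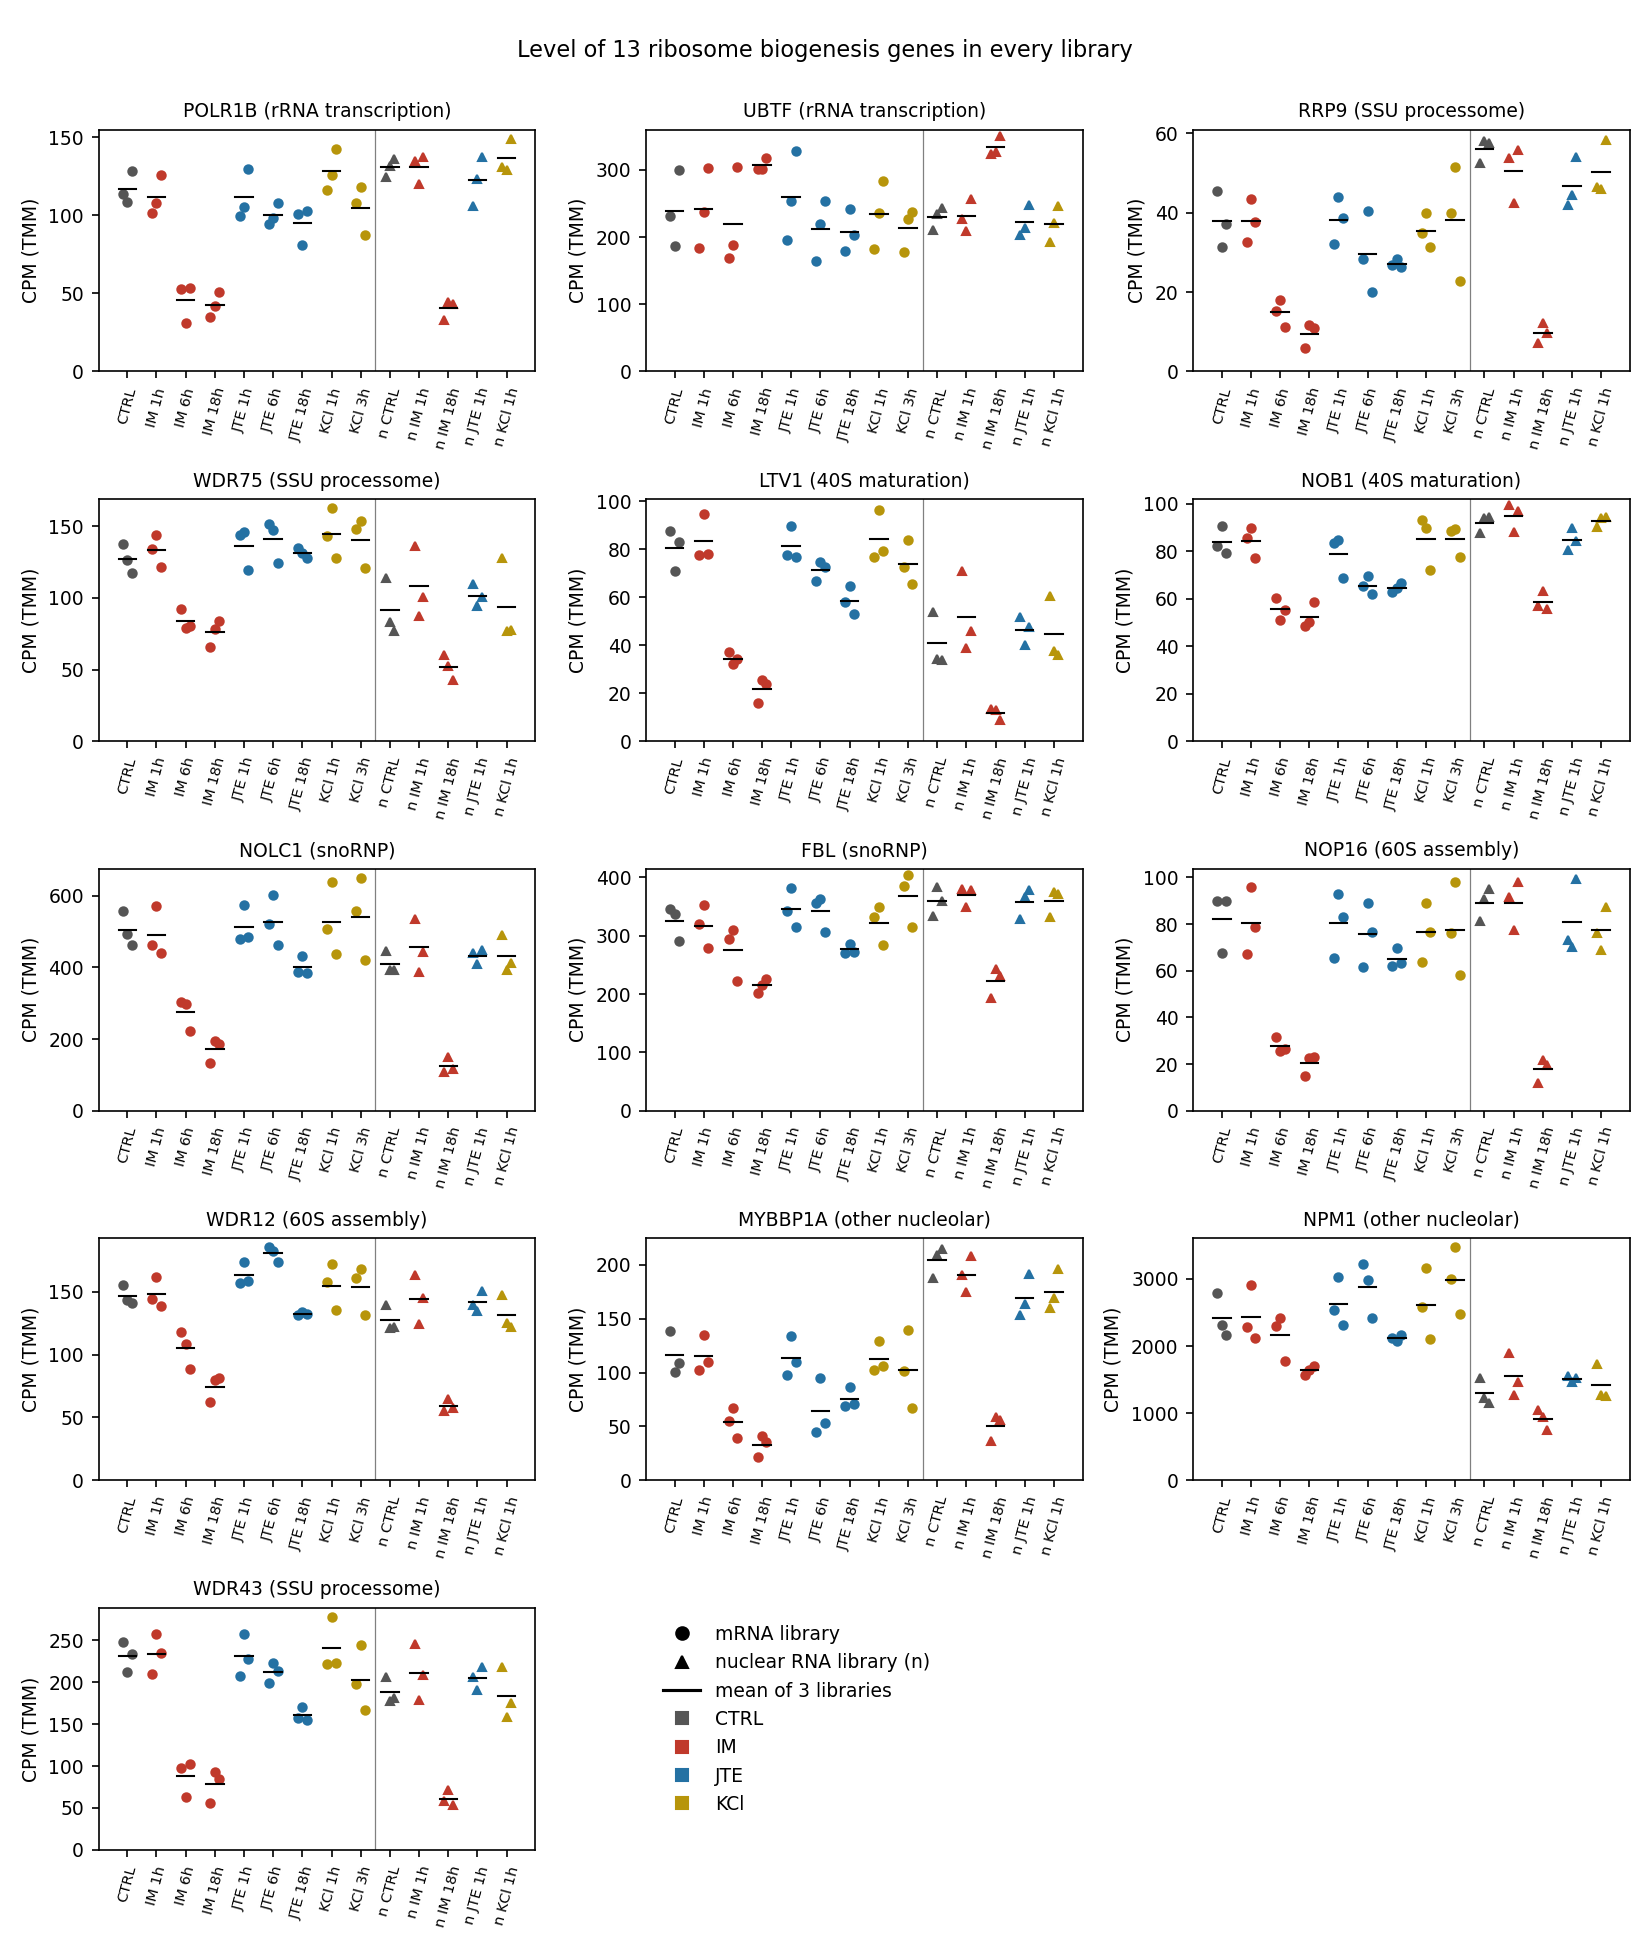
CPM (TMM scaled) of 13 members in each library by group, with circles for mRNA, triangles for nuclear RNA (n) and a bar for the mean of 3 libraries. WDR43 falls from between 212.0 and 248.3 CPM in CTRL to between 55.87 and 93.44 CPM at IM 18 h in mRNA, whereas UBTF is at or above 301.4 CPM.

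Nuclear RNA was measured as well at IM 18 h. There, 48 of 50 members were lower and 0 higher, where 15.4% of all 21929 tested genes were lower, with a median of -1.39 over the members and 0.00 over all tested genes. The largest falls were those of RRP9 at -2.54 ± 0.17 (SE, adjusted p = 1.2e-09), NOP16 at -2.32 and NOP2 at -2.03. RRP9 was at 52.56, 57.99 and 57.68 CPM in nuclear CTRL and at 7.144, 12.19 and 9.771 CPM at nuclear IM 18 h, so the groups were well separated. WDR43 was at 206.2, 178.0 and 180.9 CPM in nuclear CTRL and 58.42, 71.02 and 53.36 CPM at IM 18 h, again without overlap (-1.63, adjusted p = 1.4e-08). UBTF and NPM1 were not called. UBTF was at 210.5, 234.3 and 243.4 CPM in nuclear CTRL and 323.7, 325.7 and 350.6 CPM at IM 18 h. The groups did not overlap, with a log2 fold change of 0.54 (adjusted p = 0.00037) under the fold threshold. UBTF was called higher with total counts only (0.61) and without nuclear CTRL replicate 2 (0.61) or replicate 3 (0.63).

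By role, nuclear RNA gave 17 of 17 SSU processome genes lower, 12 of 12 of 60S assembly, 8 of 8 snoRNP genes, 4 of 4 of 40S maturation, 3 of 4 of rRNA transcription and 4 of 5 others. POLR1B was at 124.6, 131.6 and 136.3 CPM in nuclear CTRL and 33.15, 44.54 and 43.35 CPM at IM 18 h (-1.70 ± 0.12, SE, adjusted p = 2.2e-09). NOP16 was at 81.25, 90.74 and 94.91 CPM in nuclear CTRL and 12.08, 21.79 and 19.78 CPM at IM 18 h. Both genes had CTRL and treated groups far apart. MYBBP1A was at 187.5, 209.5 and 214.9 CPM in nuclear CTRL and 36.21, 58.88 and 55.82 CPM at IM 18 h, without overlap (-2.02 ± 0.15, adjusted p = 4.5e-09). WDR75 was at 114.2, 83.0 and 77.14 CPM in nuclear CTRL and 59.93, 52.19 and 42.89 CPM at IM 18 h, where the groups lay closer but were still apart (-0.82 ± 0.22, adjusted p = 0.0062).

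The 47 members called in mRNA were 97.9% of the 48 called in nuclear RNA, and all 47 were called there. FBL was the one added, at -0.69 (adjusted p = 8.9e-06), from 334.2, 383.9 and 359.1 CPM to 192.7, 242.8 and 230.8 CPM. Whether the response differed between the kinds of RNA was tested as an interaction over 12 libraries. 0 of 50 members differed, where 0.0901% of all tested genes did, with 0 at an unadjusted p under 0.05 in edgeR and 0 by DESeq2. The members' estimates of nuclear minus mRNA response ran from -0.49 (RRP9) to 0.23 (UBTF) with a median of -0.08, and their standard errors were 0.31 for RRP9 and 0.18 for UBTF.

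**Figure D4:**
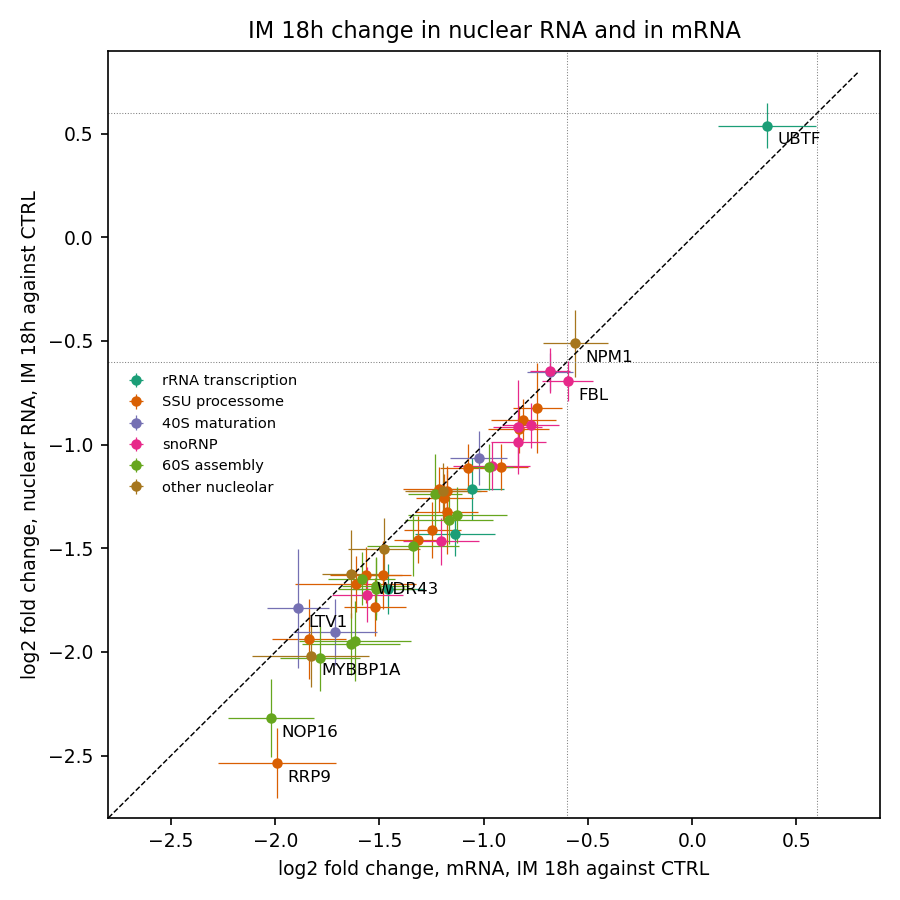
Log2 fold change at IM 18 h against CTRL for the 50 genes, with mRNA on the horizontal and nuclear RNA on the vertical axis, coloured by role. Bars are standard errors, the dashed line marks equal change and the dotted lines the fold threshold of 0.6. RRP9 lies farthest down, at -1.99 in mRNA and -2.54 in nuclear RNA, and UBTF alone lies above 0 on both axes.

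At nuclear IM 1 h, 0 members were called (0 at an unadjusted p under 0.05 in edgeR, 0 by DESeq2), where 0.0456% of all tested genes were called, and the median was 0.06.

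JTE-607 was compared with CTRL in the same way. At JTE 1 h, 0 members were called in mRNA (0 at an unadjusted p under 0.05 in edgeR, 0 by DESeq2), where 0.851% of all tested genes were called. In nuclear RNA 0 were called, with 2 at an unadjusted p under 0.05 in edgeR and 0 by DESeq2, although 8.52% of all genes were called. The difference between both kinds of RNA was called for 0 members (0 at an unadjusted p under 0.05 in edgeR, 0 by DESeq2), where 0.0605% of all tested genes were called.

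At JTE 6 h, 4 of 50 members were lower and 0 higher, which is 8% and lies near the 6.47% of all tested genes called lower. The members' median was -0.10. RRP1, a 60S assembly gene, ranged from 88.32 to 115.4 CPM in CTRL, with 40.66, 62.89 and 28.83 CPM at JTE 6 h and 76.27, 94.1 and 73.48 CPM at JTE 18 h. The JTE 6 h libraries were below all those of CTRL and JTE 18 h, at -1.20 ± 0.22 against CTRL (SE, adjusted p = 0.00034). NAT10 was at 235.8, 229.8 and 209.1 CPM in CTRL and 104.1, 135.5 and 95.36 CPM at JTE 6 h, without overlap (-1.01, adjusted p = 5.3e-06). MYBBP1A was at -0.85 (adjusted p = 0.032) and was not called without CTRL replicate 1, JTE 6 h replicate 1 or JTE 6 h replicate 3, nor when only the libraries of the 2 groups were fitted. POLR1A, named after its values were seen, was at 288.2, 245.7 and 276.8 CPM in CTRL and 124.1, 196.8 and 170.4 CPM at JTE 6 h, without overlap (-0.72, adjusted p = 0.0012). Without JTE 6 h replicate 1 the count was 2.

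At JTE 18 h, only BOP1, a 60S assembly gene, was called, with 0 higher, where 2.09% of all tested genes were lower. It was at 135.3, 113.2 and 90.37 CPM in CTRL and at 52.2, 69.22 and 53.71 CPM at JTE 18 h. The groups did not overlap, and the log2 fold change was -0.95 (adjusted p = 0.012). The call was absent without CTRL replicate 1, JTE 18 h replicate 1 or JTE 18 h replicate 3, and the count was 2 without CTRL replicate 2. The members' median was nevertheless -0.32, and the library medians were -0.35, -0.23 and -0.33. In these libraries 46, 41 and 46 members were below the CTRL mean. In edgeR 21 members had an unadjusted p under 0.05, and 8 had an adjusted p under 0.05. JTE 18 h was also tested against JTE 6 h. RRP1 alone was called, higher at 18 h by 0.88 on the log2 scale (adjusted p = 0.0056), where 7.76% of all tested genes were higher, and leaving out replicate 2 of JTE 6 h gave a count of 3, replicate 3 a count of 2.

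Imatinib and JTE-607 were compared directly at matched times, although their doses of 1 and 5 μM differ and the agents are not related in structure. At 6 h, 27 of 50 members were lower with imatinib and 0 higher, where 10.2% of all tested genes were lower, with a median of -0.70. PPAN at -1.77, WDR3 at -1.46 and NOP16 at -1.44 were the lowest. WDR3 was at 68.49 ± 11.1 CPM (SD, n = 3) at IM 6 h and 189.0 ± 5.4 CPM at JTE 6 h. At 18 h, 40 of 50 were lower with imatinib and 0 higher, where 13.6% of all tested genes were lower, with a median of -1.03. PPAN, NOP16 and RRP9 had the lowest values there, at -1.92, -1.68 and -1.50. Against CTRL, PPAN fell less than against JTE-607 at both times, with -1.36 to -1.11 over the settings at IM 6 h. Its place in these rankings therefore also reflects its level with JTE-607. Of its exon bases, 59.8% overlap other genes, among them the joined transcript PPAN-P2RY11.

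Hyperosmotic KCl left the members without a call. At KCl 1 h, 0 of 50 were called in mRNA, where 5.45% of all tested genes were called, with 1 at an unadjusted p under 0.05 in edgeR and 0 by DESeq2. At KCl 3 h, 0 of 50 were called, where 11.9% of all tested genes were called, with 3 at an unadjusted p under 0.05 in edgeR and 0 by DESeq2. DDX10 had an adjusted p of 0.046 there, but its log2 fold change of 0.39 was under the fold threshold. Between KCl 3 h and 1 h, 0 were called (2 at an unadjusted p under 0.05 in edgeR, 0 by DESeq2), where 3.29% of all tested genes were called.

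In nuclear RNA at KCl 1 h, 0 of 50 members were called although 23.8% of all tested genes were. In edgeR 2 had an unadjusted p under 0.05, and DESeq2 called 0. The nuclear response differed from the mRNA response for 0 members (0 at an unadjusted p under 0.05 in edgeR, 0 by DESeq2), where 0.668% of all tested genes differed. The estimates were below 0 for 48 of 50 members, with a median of -0.14 against -0.07 over all tested genes, and with RLE size factors these medians were -0.07 and -0.002.

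Further genes of the same pathway were taken from a list of 83 that the members do not include. At IM 18 h in mRNA, 63 of 83 were lower and 0 higher (median -0.89), where 13.2% of all tested genes were lower. They comprised 6 of 11 other genes of RNA polymerase I, 23 of 29 other SSU processome genes, 27 of 33 other 60S genes and 7 of 10 genes of export and late maturation. At IM 6 h 39 were lower, beside 4.12% of all tested genes, and in nuclear RNA at IM 18 h 68 were lower, beside 15.4%.

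MYC encodes a transcription factor known to drive many of these genes. Its mRNA was at 277.4, 368.6 and 229.5 CPM in CTRL, 224.4, 156.2 and 104.2 CPM at IM 1 h, 143.1, 52.29 and 105.6 CPM at IM 6 h and 83.84, 96.97 and 112.3 CPM at IM 18 h. Each imatinib group was below CTRL. The log2 fold change was -0.85 (adjusted p = 1.0) at 1 h, -1.54 ± 0.29 (SE, adjusted p = 0.00079) at 6 h and -1.58 (adjusted p = 0.00014) at 18 h. With JTE-607 it was -0.59 (adjusted p = 0.66) at 1 h, 0.04 at 6 h and -0.66 (adjusted p = 0.16) at 18 h, none of which was called. At JTE 1 h in nuclear RNA it was -0.58 (unadjusted p = 0.005, adjusted p = 0.05 after rounding), under the fold threshold. With imatinib the nuclear values were -0.87 (unadjusted p = 0.00018, adjusted p = 0.15) at IM 1 h and -1.71 (adjusted p = 1.3e-06) at IM 18 h. In mRNA at 1 h the unadjusted p in edgeR was 0.0061 with imatinib and 0.048 with JTE-607. The adjusted p also depends on the other genes tested, of which 0.0456% were called at nuclear IM 1 h and 8.52% at nuclear JTE 1 h. The part of MYC in the change of the members was not tested.

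Members with CACGTG in a promoter window had a median log2 fold change of -1.31 at IM 18 h in mRNA (19 genes, -1.99 to -0.60, 18 lower), and those whose windows lacked it had -1.19 (24 genes, -2.02 to 0.36, 22 lower). At IM 6 h the medians were -0.94 and -0.77, and in nuclear RNA at IM 18 h -1.46 and -1.34. The median was lower with CACGTG in each comparison, and the ranges overlapped almost completely. WDR43, with the sequence, and NOP16, without it, have their windows printed above, and both fell. A window covers only 300 bases, and the part of CACGTG in the fall was not tested.

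Introns of the members carry snoRNA genes, which are released from the host intron and guide rRNA modification. Of 25 annotated snoRNAs within the span of 7 hosts, 12 passed the low-count filter of the nuclear fit, in the hosts WDR43, NOP58, NCL, GNL3 and PPAN. The counts of the other 13 were too low to test. Some of these, such as SNORD110, SNORD56, SNORD57 and SNORD86, lie wholly on annotated exons of NOP56 and had counts of 0. Their counts depend on how shared reads were assigned, so low abundance cannot be read from them. The 12 tested snoRNAs shared no bases with exons of other genes. Of the 12, 9 had at least 10 counts in every nuclear CTRL library. Both filters can favour snoRNAs that are high in CTRL, so the values are given as a description and no count of calls is drawn from them. At nuclear IM 18 h the log2 fold changes of the 12 ran from -2.34 to -1.10. SNORD20 of NCL had 28, 45 and 45 counts in CTRL and 12, 13 and 9 at IM 18 h (-1.74 ± 0.31, SE, adjusted p = 0.00012). SNORD19C of GNL3 had 25, 17 and 20 counts in CTRL and 3, 8 and 9 at IM 18 h (-1.55 ± 0.38, adjusted p = 0.0022). The groups did not overlap for either. SNORD11 of NOP58 had 29, 28 and 25 counts in CTRL and 10, 12 and 5 at IM 18 h, also without overlap (-1.55 ± 0.31, adjusted p = 0.00033), while SNORD82 of NCL, with 14, 4 and 11 counts in CTRL and 5, 6 and 1 at IM 18 h, overlapped and was not called (-1.21, adjusted p = 0.1). SNORD105B of PPAN had 12, 9 and 9 counts in CTRL and 2, 7 and 2 at IM 18 h (-1.37 ± 0.52, adjusted p = 0.036). SNORD53B of WDR43 had 24, 26 and 30 counts in CTRL and a wide spread of 6, 16 and 3 at IM 18 h (-1.62 ± 0.38, adjusted p = 0.0017). The counts were low, and reads from a snoRNA and from the host intron around it cannot be told apart.

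At nuclear KCl 1 h, the log2 fold changes of the 12 snoRNAs ran from -2.14 to -0.24. SNORD53B of WDR43 had 24, 26 and 30 counts in CTRL and 8, 4 and 5 at KCl 1 h, without overlap (-2.13 ± 0.41, SE, adjusted p = 0.00039). SNORD11 was at -1.30 (adjusted p = 0.0019), SNORD20 at -0.69 (0.076), SNORD19C at -0.69 (0.16), SNORD105B at -0.49 (0.51) and SNORD82 at -0.24 (0.81). At IM 1 h the 12 ran from -0.75 to 0.30 (lowest adjusted p 0.88 in edgeR). At JTE 1 h they ran from -1.14 to 0.09, and the lowest adjusted p was 0.055 for SNORD11, so none passed the test.

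**Figure D5:**
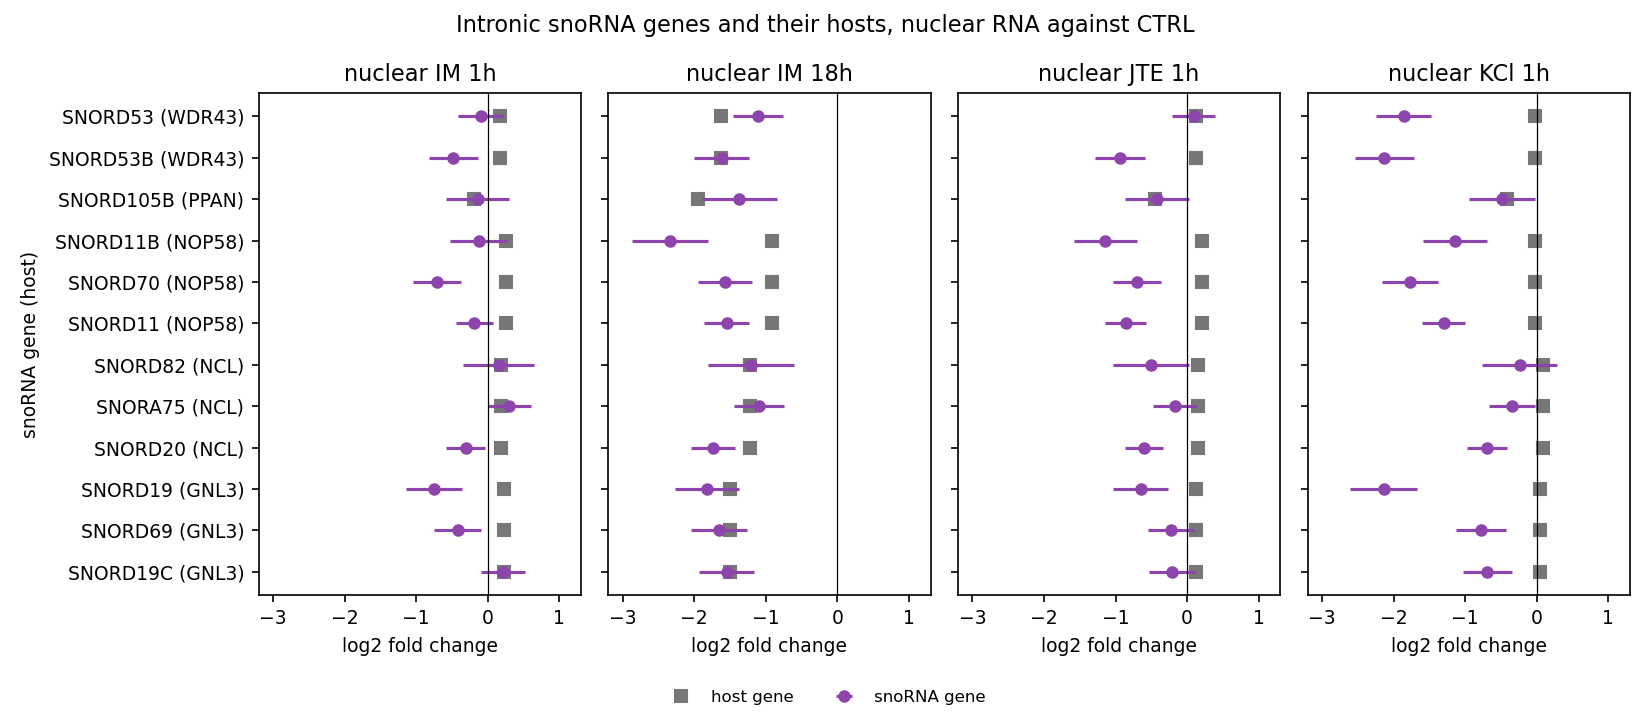
Log2 fold change against CTRL in nuclear RNA of the 12 intronic snoRNAs tested (circles, bars are standard errors) and of their 5 host genes (squares), by treatment. At KCl 1 h SNORD53B lies at -2.13 and SNORD82 at -0.24, while their hosts lie near 0. At IM 18 h snoRNAs and hosts all lie below 0.

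K562 markers moved with imatinib. Of 9 fixed markers, 6 were higher and 0 lower at IM 18 h in mRNA, and their summed level was between 2360 and 3280 CPM in the CTRL libraries and between 6470 and 9310 CPM at IM 18 h. In nuclear RNA 6 of 9 were higher, with sums of 3020 to 4350 and 7440 to 8760 CPM. Of the 12 markers of other cell types, 7 were tested at IM 18 h in mRNA, of which 1 was higher and 2 lower. The part of any marker in the fall of the members was not tested.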

How the data were processed

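The deposited files hold raw counts per gene, which the authors made by trimming and deduplicating reads with fastp, aligning them to GRCh38 with STAR (unique alignments only) and counting read pairs over exons with featureCounts without a strand setting; the annotation release was not given in the sources used here. Groups came from the sample labels. The test was the robust quasi-likelihood F-test of edgeR 4.0.16 (run in R 4.3.3) after TMM scaling and edgeR's low-count filter, with all libraries of a kind of RNA in 1 fit, and an interaction of RNA kind and treatment over 12 libraries. None of these main tests used replicate pairing, in nuclear RNA either, so variation shared by same-numbered libraries stayed in their spread. The alternatives were DESeq2 1.42.0, other scalings, no low-count filter, no fold threshold, only the groups compared, a replicate block and each library left out. Members and lists were chosen with earlier results of these data known. The 13 genes given in every library were WDR43 and, per role, the members with the lowest and highest log2 fold change at IM 18 h in mRNA. In other comparisons the 3 largest called changes were named, and of the snoRNAs the most abundant per host. SNORD82 was named, and the set widened to all tested snoRNAs, after the values were seen. 0 count columns lacked a sample. Replicate numbers were taken to pair libraries where every correlation of same-numbered deviations was above 0.1, which held for all nuclear comparisons with CTRL and for JTE 18 h against 6 h, KCl 3 h against 1 h and IM 6 h against JTE 6 h in mRNA. It held for no mRNA comparison with CTRL. By the labels, mRNA CTRL replicates 1 and 2 had 18333127 and 19031221 counts. The paper's mapping statistics give these totals in the opposite order. Pairing by number with mRNA CTRL, and the mRNA replicate block, are therefore uncertain. The tests were checked on simulated counts. The p-values set each change against the spread between replicates as labelled, which in the main tests was estimated over all groups in the fit.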

Additional observations from a re-analysis of the deposited data

Results flagged for a closer look

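In 2 direct tests with edgeR between times of 1 treatment, at least 1 member was called. For imatinib, 8 of 50 members were lower at 18 h than at 6 h, against 1.93% of all tested genes. Leaving out 1 library moved this count between 1 and 16, and RRP12 and NOC2L lost their calls in some of these fits, while PES1 did not. For JTE-607, 1 of 50 members (2%), RRP1, was higher at 18 h than at 6 h, which is below the 7.76% of all tested genes called higher. The CPM of RRP1 were below CTRL in all 3 libraries at 6 h and overlapped it at 18 h.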

How the results depend on the processing

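Of 157 counts of called members under other settings, 148 stayed within 1.5 times the count reported and 9 moved. Without a fold threshold the count was 7 at JTE 6 h, 8 at JTE 18 h, 1 at KCl 3 h, 18 for IM 18 h against IM 6 h and 12 for JTE 18 h against JTE 6 h. At JTE 18 h it was 2 without the low-count filter, 2 when only the 2 groups were fitted and 2 with a replicate block. With total counts only, JTE 18 h against JTE 6 h gave 4, and the median of all tested genes moved to 0.10 there and to 0.12 for IM 6 h against JTE 6 h. The replicate block changed no other count by over 1.5 times, with 48 members at nuclear IM 18 h and 29 for IM 6 h against JTE 6 h. Leaving out 1 library gave 47 to 49 members at IM 18 h, 30 to 37 at IM 6 h, 46 to 49 at nuclear IM 18 h, 39 to 41 for IM 18 h against JTE 18 h, 23 to 32 for IM 6 h against JTE 6 h, 1 to 16 for IM 18 h against IM 6 h, 2 to 5 at JTE 6 h, 0 to 2 at JTE 18 h and 1 to 3 for JTE 18 h against JTE 6 h. The cause was not tested. For the 13 genes given in every library, 13 of 182 refitted changes at IM 18 h in mRNA crossed a threshold, all of FBL or NPM1. Apart from the fits without a fold threshold, the call of 38 members changed in at least 1 setting of some comparison, 177 times in all, of which 47 were for IM 18 h against IM 6 h, 42 for IM 6 h against JTE 6 h, 41 at IM 6 h and 14 at nuclear IM 18 h. In 0 of these did a call turn to the opposite direction. Low counts limited the snoRNA values.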
